A study of Bos taurus with 22 samples.

Results

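CA4, MFSD2A and NTS are 3 genes whose products are known from the walls of blood or lymph vessels, and their transcripts were followed here in the subcutaneous backfat of 22 steers. They are 3 of the 24616 genes in the count table (ENSBTAG00000017969, ENSBTAG00000013054 and ENSBTAG00000005305). The genes were chosen by their measured levels, since each had been called between feed efficiency groups of a single breed, CA4 in Charolais, MFSD2A in Kinsella composite and NTS in Angus. The values of those contrasts are given as a description without a test. Tests between efficiency groups concern the breeds that the choice did not use. Tests between breeds average the efficiency groups of each breed, and so include the steers on which a gene was chosen.

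RNA-Seq of fat taken after slaughter was available for 8 Angus (ANG), 6 Charolais (CHAR) and 8 Kinsella composite (KC) steers, the last labelled as Hereford and Angus crosses. RFIfat, the residual feed intake corrected for the thickness of the backfat, is the feed an animal eats beyond what its growth, size and fatness predict, so a low value marks an efficient animal. ANG and KC had 4 steers with high RFIfat (H-RFI) and 4 with low RFIfat (L-RFI), and CHAR had 3 of each. RFIfat was 0.54 to 2.03 kg for H-RFI and -1.77 to -0.75 kg for L-RFI steers, and all steers had received a finishing diet.

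CA4 is a carbonic anhydrase tethered to the outer face of the cell membrane, best known on the lining of capillaries, where it interconverts carbon dioxide and bicarbonate. MFSD2A carries lysophosphatidylcholine, a lipid that holds a single fatty acid such as docosahexaenoic acid, across the membrane, and it is a hallmark of the endothelium of the blood-brain barrier. NTS encodes the precursor of neurotensin, a peptide of brain and gut that is also made by lymphatic endothelium and is known to act on fat absorption. In fat, capillaries deliver fatty acids and lymph vessels drain the tissue, and both lie among the adipocytes that make up its bulk.

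Between 8033008 and 12426133 reads per steer fell on genes. Levels are CPM on the TMM-scaled library size (TMM CPM, reads relative to the depth of each library), and 3 reads, the number used here as the floor of detection, corresponded to 0.241 to 0.373 CPM. The labels name the cells as adipocytes, but whole tissue was sequenced. None of the 9 adipocyte and 15 blood vessel endothelium genes that were to check this could be matched to a name. In whole tissue, fewer cells of a type and less RNA per cell cannot be told apart. The share of reads assigned to more than a single gene separated 6 steers (F8, F10, F14, F18, F25 and F28, none of them CHAR) at 0.807% to 1.24% from the other 16 at 2.39% to 5.92%, so results are also given without these 6 steers where that changed the sign or moved the value by over 1.5 times. Animals were the replicates, and the labels give no batch.

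CA4 was the best measured of the 3 genes. It lay above 1 CPM in 22 of 22 steers and had a median of 76.5 reads. In ANG, CA4 stood at 7.71, 6.10, 8.20 and 10.5 TMM CPM in the H-RFI steers F20, F21, F28 and F32 (61, 55, 80 and 109 reads). The ANG L-RFI steers F18, F23, F24 and F25 had 8.04, 2.98, 7.65 and 14.4 TMM CPM (87, 25, 64 and 127 reads). The L-RFI values lay on both sides of the H-RFI values, and F23 and F25 were the extremes of the breed.

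In CHAR, the H-RFI steers F36, F43 and F48 had 15.4, 11.7 and 15.7 TMM CPM of CA4 (188, 110 and 144 reads). The L-RFI steers F33, F46 and F47 had 5.85, 4.02 and 6.61 TMM CPM (66, 46 and 61 reads). The groups did not overlap, and the H-RFI mean was 14.2 ± 2.23 against 5.49 ± 1.33 TMM CPM (SD, n = 3 each). In KC, CA4 was 7.87, 11.5, 6.78 and 5.63 TMM CPM in the H-RFI steers F1, F7, F8 and F9 (82, 132, 73 and 70 reads). It was 11.1, 1.80, 8.30 and 11.8 TMM CPM in the L-RFI steers F10, F11, F14 and F16 (101, 19, 69 and 102 reads). The KC groups overlapped, and F11 had the lowest CA4 level of all 22 steers.

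MFSD2A was close to the floor in much of the herd. It lay above 1 CPM in 13 of 22 steers, had a median of 12 reads, and 6 steers had no more than 3 reads. In ANG, the H-RFI steers F20, F21, F28 and F32 had 0.253, 1.77, 0.205 and 3.28 TMM CPM (2, 16, 2 and 34 reads). The ANG L-RFI steers F18, F23, F24 and F25 had 2.50, 16.2, 1.08 and 0.568 TMM CPM (27, 136, 9 and 5 reads). F23 alone held 136 of the 401 MFSD2A reads counted in the study, and the ANG groups overlapped.

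In CHAR, MFSD2A was 0.163, 0.318 and 1.96 TMM CPM in the H-RFI steers F36, F43 and F48 (2, 3 and 18 reads). In the L-RFI steers F33, F46 and F47 it was 1.33, 1.40 and 0.650 TMM CPM (15, 16 and 6 reads), within the H-RFI range. In KC, the H-RFI steers F1, F7, F8 and F9 had 1.44, 2.18, 2.51 and 1.61 TMM CPM (15, 25, 27 and 20 reads). The KC L-RFI steers F10, F11, F14 and F16 had 0.221, 0.851, 0.361 and 1.04 TMM CPM (2, 9, 3 and 9 reads). The KC groups did not overlap. The difference rested on 87 reads in the H-RFI and 23 reads in the L-RFI group, with means of 1.94 ± 0.498 and 0.619 ± 0.391 TMM CPM (SD, n = 4 each).

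NTS had the fewest reads. It lay above 1 CPM in 11 of 22 steers, had a median of 9.5 reads, and 5 steers had no more than 3 reads. In ANG, the H-RFI steers F20, F21, F28 and F32 had 2.27, 1.22, 3.28 and 3.85 TMM CPM (18, 11, 32 and 40 reads). The ANG L-RFI steers F18, F23, F24 and F25 had 0.740, 0.119, 0.239 and 0.114 TMM CPM (8, 1, 2 and 1 reads). The ANG groups did not overlap, and all NTS reads of the group came to 101 for H-RFI and 12 for L-RFI.

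In CHAR, NTS was 0.490, 0.424 and 7.40 TMM CPM in the H-RFI steers F36, F43 and F48 (6, 4 and 68 reads), so that F48 held the highest NTS level of all 22 steers. The L-RFI steers F33, F46 and F47 had 0.621, 1.49 and 0.542 TMM CPM (7, 17 and 5 reads). In KC, the H-RFI steers F1, F7, F8 and F9 had 1.92, 2.01, 2.04 and 0.482 TMM CPM (20, 23, 22 and 6 reads). The KC L-RFI steers F10, F11, F14 and F16 had 1.88, 0.284, 0.240 and 4.18 TMM CPM (17, 3, 2 and 36 reads). In both breeds the L-RFI and H-RFI values overlapped.

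**Figure D1:**
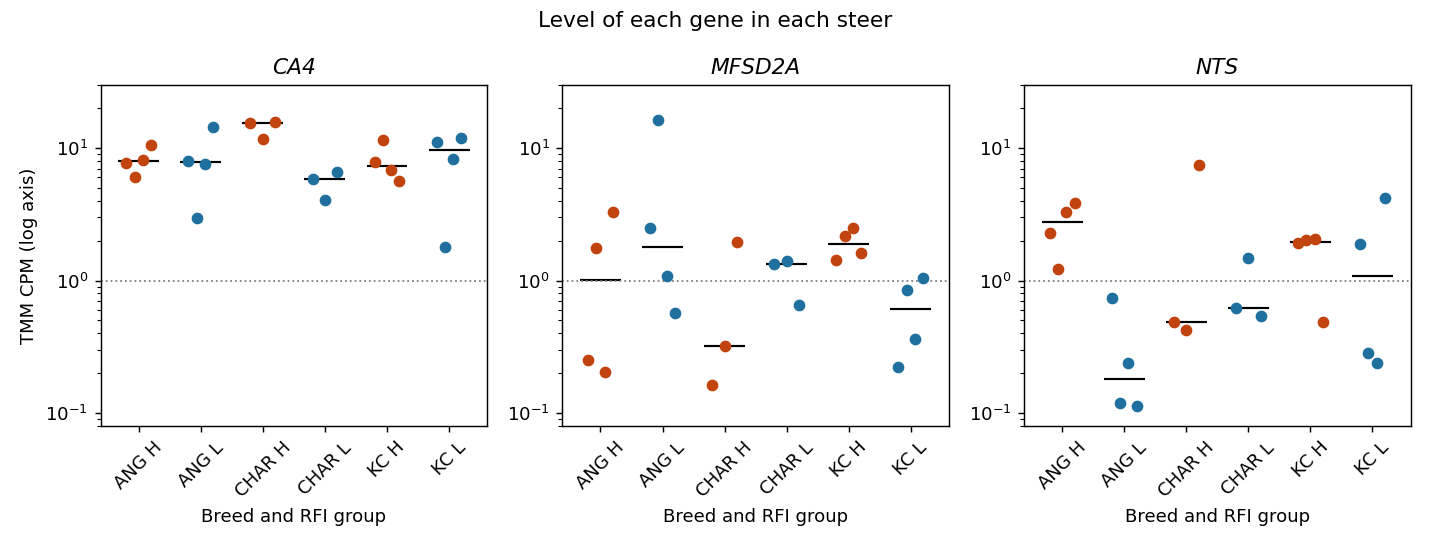
Level of CA4, MFSD2A and NTS in each of the 22 steers by breed and RFI group, in TMM CPM on a log axis, with H-RFI steers in red and L-RFI steers in blue. Each point is a steer, the black bar is the group median and the dotted line marks 1 TMM CPM. The H-RFI and L-RFI steers separate for NTS in ANG, MFSD2A in KC and CA4 in CHAR, and MFSD2A reaches 16.2 TMM CPM in a single ANG L-RFI steer.

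The 3 contrasts for which the genes were chosen all had the lower level in L-RFI steers. The log2 fold change of L-RFI over H-RFI of NTS in ANG was -3.01 (SE 0.59), that of CA4 in CHAR -1.38 (SE 0.24) and that of MFSD2A in KC -1.61 (SE 0.45). The study reported most of its called genes as lower in L-RFI steers in each breed. Groups that do not overlap, with L-RFI lower, made up 1.57% of the 13613 genes fitted for ANG, 4.75% of 13737 for CHAR and 5.68% of 13725 for KC. With L-RFI higher, the shares were 1.29%, 5.53% and 5.11%. For NTS in ANG, leaving out a steer moved the value between -3.98 (without F18) and -2.75 (without F25). NTS stayed in the fit only when an L-RFI steer was left out, since without an H-RFI steer it was above 1 CPM in too few ANG steers. For CA4 in CHAR the range was -1.53 to -1.19, and for MFSD2A in KC it was -1.95 to -1.32. Since the groups did not overlap in these contrasts, leaving out a steer could not turn the sign. Without the 3 KC steers of the low share of ambiguous reads, MFSD2A in KC came to -0.87.

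**Figure D2:**
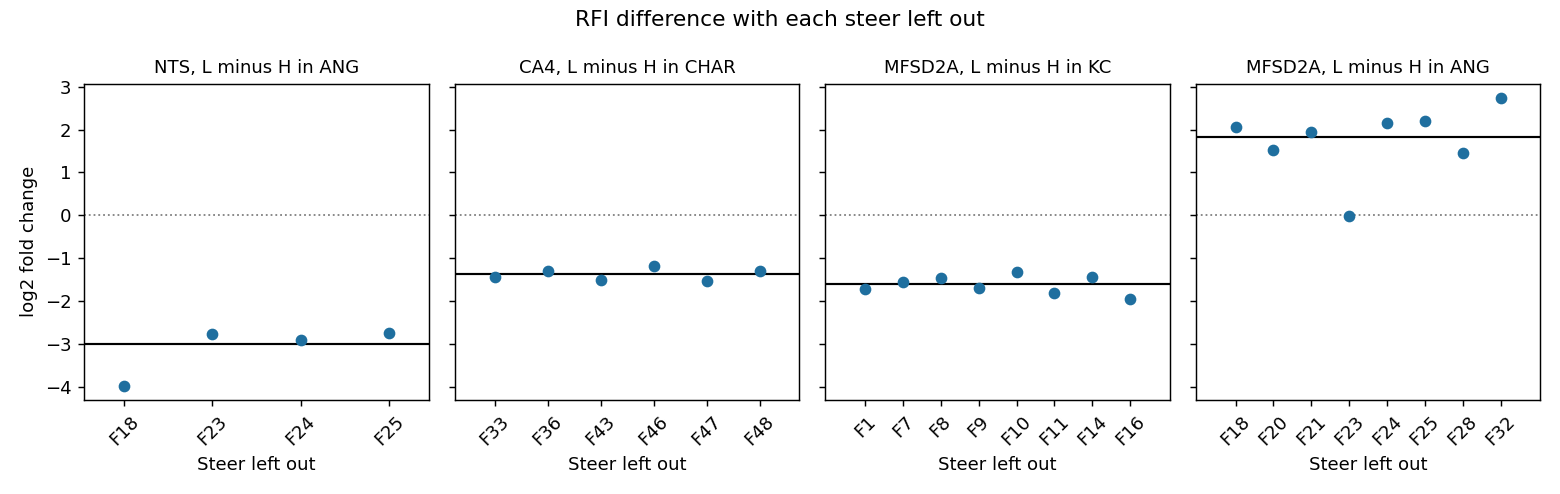
Difference between L-RFI and H-RFI steers on the log2 scale (vertical axis) after leaving out the steer named on the horizontal axis, for the 3 contrasts that chose the genes and for MFSD2A in ANG. The black line is the value with all steers and the dotted line is 0. The choosing contrasts stay below 0, which was fixed in advance because their groups do not overlap. MFSD2A in ANG, which was tested, drops from 1.83 to -0.01 without F23.

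Markers of other cells moved beside these contrasts, and their part in them was not tested. They come from the same lists of called genes and are therefore a description as well. In ANG, the summed level of the matched lymph vessel markers (PROX1, PDPN and RELN, 3 of 10 listed) ranged over 85.2 to 154 TMM CPM for H-RFI and 41.5 to 118 for L-RFI. The mast cell genes HDC, the histamine-making enzyme, and TPSB2, a tryptase (2 of 6 listed), summed to 20.4 to 46.6 TMM CPM in ANG H-RFI and 6.70 to 23.6 in ANG L-RFI steers. Both sums overlapped between the groups, and of the single markers only PDPN and HDC did not. PDPN, a membrane glycoprotein of lymphatic endothelium, was 42.9 to 91.3 TMM CPM in ANG H-RFI and 17.1 to 39.5 in ANG L-RFI steers (log2 fold change -1.20, SE 0.30), and HDC was 3.66 to 8.38 against 0.370 to 3.103 (-1.92, SE 0.53). PROX1 and RELN overlapped, with log2 fold changes of 0.10 (SE 0.39) and 0.07 (SE 0.39). Of 2 further vessel genes, picked after their values were seen, THBD, the thrombin receptor thrombomodulin of endothelium, was 191 to 521 TMM CPM in ANG H-RFI and 72.7 to 117 in ANG L-RFI steers. ACKR2, a scavenging chemokine receptor of lymphatic endothelium, was 8.61 to 15.0 against 2.27 to 6.94 TMM CPM, and 2 other genes overlap it in the RefSeq annotation. THBD and ACKR2 were lower in L-RFI steers of the other breeds too, with overlap. Their means of log2(TMM CPM + 0.5) differed by -0.90 and -0.61 in CHAR and by -0.87 and -0.47 in KC. HDC and TPSB2 had negative log2 fold changes there too, with overlap. They were -1.11 (SE 0.90) and -1.33 (SE 0.66) in CHAR and -0.62 (SE 0.51) and -0.57 (SE 0.43) in KC. In CHAR H-RFI, F48 held 96 of the 124 HDC reads and 257 of the 378 TPSB2 reads. F36 and F43, the other CHAR H-RFI steers, had 1.14 and 1.48 TMM CPM of HDC, against 1.05 to 3.68 in CHAR L-RFI. Their TPSB2 levels were 5.23 and 6.04 TMM CPM, against 3.63 to 7.37 in CHAR L-RFI.

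In CHAR, where CA4 was lower in L-RFI steers, DES, a filament protein of muscle cells and the only match of 10 smooth muscle and pericyte genes, was 21.99 to 60.2 TMM CPM in H-RFI and 45.9 to 315 TMM CPM in L-RFI steers. PDPN did not overlap in CHAR either (35.1 to 71.6 TMM CPM in H-RFI, 18.6 to 32.7 in L-RFI), while the lymph vessel sum did (45.9 to 97.9 against 48.8 to 95.9). PRX, from the 7 genes listed for Schwann cells, was 1.14 to 1.38 TMM CPM in CHAR H-RFI steers. In CHAR L-RFI it was higher without overlap, at 30.5, 5.16 and 1.52 TMM CPM in F33, F46 and F47 (log2 fold change 3.29, SE 1.02). Groups that do not overlap with L-RFI higher made up 5.53% of the genes fitted for CHAR. In ANG and KC, PRX overlapped (1.94, SE 0.87, and 0.75, SE 0.34).

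In KC, where MFSD2A was lower in L-RFI steers, the barrier gene OCLN, a tight junction protein, separated in the other direction. It was 4.37 to 6.92 TMM CPM in H-RFI and 8.79 to 15.2 in L-RFI steers without overlap (log2 fold change 1.12, SE 0.23). Such groups, with L-RFI higher, made up 5.11% of the 13725 genes fitted for KC. SLC2A1, a glucose transporter, overlapped, with a log2 fold change of -1.62 (SE 0.56). A negative value of SLC2A1 was not particular to KC. With overlap, SLC2A1 came to -1.71 (SE 0.77) in ANG and -2.63 (SE 1.08) in CHAR. MFSD2A came to 1.83 (SE 1.07) and 0.54 (SE 0.82) in these breeds. F32 held 2412 of the 3789 SLC2A1 reads of ANG H-RFI, and F48 held 2492 of the 2873 of CHAR H-RFI. F36 and F43, the other CHAR H-RFI steers, had 8.83 and 28.9 TMM CPM of SLC2A1, against 12.7 to 21.5 in CHAR L-RFI. The lymph vessel sum was 41.0 to 121 TMM CPM in H-RFI and 103 to 171 in L-RFI steers, with log2 fold changes of 1.65 (SE 0.47) for PROX1, 1.25 (SE 0.35) for RELN and 0.17 (SE 0.31) for PDPN. Also in KC, the skeletal muscle genes TTN and NEB (2 of 11 listed) summed to 64.7 to 276 TMM CPM for H-RFI and 85.4 to 2563 for L-RFI. The highest value was that of F11, the steer with the lowest CA4.

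The same efficiency contrast in the other breeds asked whether a gene chosen in a given breed also differed elsewhere. It was tested by edgeR's quasi-likelihood test with Benjamini-Hochberg adjustment over all genes fitted. CA4 did not pass in ANG (log2 fold change 0.02, SE 0.38, 95% interval -0.83 to 0.87, adjusted p = 0.9996) or in KC (0.05, SE 0.46, -0.97 to 1.06, adjusted p = 0.972). Over ANG and KC together CA4 differed by 0.04 (SE 0.33, -0.65 to 0.73, adjusted p = 0.968 in the same edgeR test). Whether the CA4 difference varied between breeds was not tested, as CHAR had chosen the gene. The sign of CA4 was not stable in these breeds. In ANG it came to -0.38 without F25, to 0.29 without F23 and to -0.61 without the 3 ANG steers of the low ambiguous share, and in KC to 0.40 without F11 and to -0.30 without the 3 such KC steers. Over ANG and KC it came to -0.45 without the 6 steers.

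MFSD2A did not pass the test in the breeds that had not chosen it. In ANG the log2 fold change was 1.83 (SE 1.07, 95% interval -0.56 to 4.22, adjusted p = 0.994 by edgeR), and it was -0.01 without F23. In CHAR it was 0.54 (SE 0.82, -1.36 to 2.44, adjusted p = 0.981 by edgeR), and F36 and F43 lay lowest with 2 and 3 reads. Without F36 it came to 0.01 and without F43 to 0.17. Over ANG and CHAR together it was 1.19 (SE 0.83, -0.59 to 2.96, adjusted p = 0.995 by edgeR), and 0.26 without F23. When log2(TMM CPM + 0.5) was compared by a 2-sided exact permutation test, MFSD2A gave p = 0.4 in ANG (n = 4 each) and p = 0.4 in CHAR (n = 3 each), where the smallest p the design allows is 0.0286 and 0.1.

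NTS differed by 0.02 in KC (SE 0.77, 95% interval -1.69 to 1.73, adjusted p = 0.994 by edgeR), and it came to -1.01 without F16 and to 0.58 without the 3 KC steers of the low ambiguous share. In CHAR NTS passed 1 CPM in 2 of 6 steers and was not fitted. There the means of log2(TMM CPM + 0.5) differed by -0.55 in an exact permutation test (2-sided p = 1, n = 3 each), and by 0.47 without F48. Over CHAR and KC together NTS differed by -0.79 (SE 0.72, -2.32 to 0.75, adjusted p = 0.636 by edgeR), by 0.48 without F48 and by -0.50 without the KC steers of the low ambiguous share. At 58 to 78 reads per group in H-RFI CHAR and both KC groups, and 29 in L-RFI CHAR, these intervals leave room for differences of either sign.

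None of these 8 RFI results reached an unadjusted p under 0.05. The background was low too. By the quasi-likelihood test, the share of genes passing a false discovery rate of 0.1 came to 0% within ANG, 0% within CHAR and 0.00729% within KC. At an unadjusted p under 0.05 there were 686, 636 and 2504 genes. DESeq2 called 61, 34 and 1096 genes and edgeR's exact test 67, 47 and 612, and MFSD2A, CA4 and NTS were not among the called genes in the breeds that had not chosen them. Over the breed pairs, 0.0216% passed in ANG and KC, 0% in ANG and CHAR and 0% in CHAR and KC, with 2164, 661 and 2187 genes at an unadjusted p under 0.05 and 505, 11 and 710 called by DESeq2.

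Between breeds, CA4 was the most even of the 3 genes. It averaged 9.86 ± 5.06 TMM CPM in CHAR (SD, n = 6), 8.20 ± 3.30 in ANG (SD, n = 8) and 8.11 ± 3.44 in KC (SD, n = 8). The log2 fold changes were 0.11 (SE 0.32) for CHAR over ANG, -0.03 (SE 0.30) for KC over ANG and 0.13 (SE 0.32) for CHAR over KC, with adjusted p = 0.921, 0.972 and 0.823 by edgeR. All 3 intervals lay within -0.65 and 0.81. Without the 6 steers of the low ambiguous share the values came to 0.42, 0.18 and 0.23.

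MFSD2A averaged 3.24 ± 5.36 TMM CPM in ANG (SD, n = 8), 1.28 ± 0.817 in KC (SD, n = 8) and 0.970 ± 0.703 in CHAR (SD, n = 6). It was -1.49 (SE 0.72, 95% interval -2.99 to 0.01) on the log2 scale in CHAR over ANG, with unadjusted p = 0.051 and adjusted p = 0.364 by edgeR. In KC over ANG it was -1.27 (SE 0.65, -2.64 to 0.09, adjusted p = 0.275 by edgeR), and in CHAR over KC -0.21 (SE 0.76, adjusted p = 0.881 by edgeR). The ANG level rested largely on F23, without which the first 2 values came to -0.57 and -0.35. In CHAR over KC the value moved to -1.06 without F48 and to -0.44 without the 6 steers. The means of log2(TMM CPM + 0.5) differed less, by -0.67 in CHAR over ANG and -0.40 in KC over ANG, and by -0.27 in CHAR over KC (exact permutation test, 2-sided, p = 0.352, 0.546 and 0.494).

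NTS averaged 1.83 ± 2.76 TMM CPM in CHAR (SD, n = 6), 1.63 ± 1.31 in KC (SD, n = 8) and 1.48 ± 1.48 in ANG (SD, n = 8). It differed by 0.74 (SE 0.70) in CHAR over ANG, 0.78 (SE 0.66) in KC over ANG and -0.04 (SE 0.62) in CHAR over KC, with adjusted p = 0.685, 0.519 and 0.971 by edgeR. Without F48, CHAR over ANG turned to -0.53 and CHAR over KC to -1.31, and KC over ANG ran from 0.26 without F16 to 1.27 without F18. Without the 6 steers the values came to 1.18, 1.38 and -0.20. The contrasts with ANG include the 12 NTS reads of ANG L-RFI, the group whose low level chose the gene. The means of log2(TMM CPM + 0.5) differed by only 0.08 in CHAR over ANG, 0.23 in KC over ANG and -0.15 in CHAR over KC (exact permutation test, 2-sided, p = 0.891, 0.668 and 0.813). Relative to the summed lymph vessel markers PROX1, PDPN and RELN, NTS differed by 0.35 in CHAR over ANG, -0.06 in KC over ANG and 0.40 in CHAR over KC on the log2 scale (exact permutation test, 2-sided, p = 0.535, 0.918 and 0.524).

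No member passed a false discovery rate of 0.1 in any breed contrast, against 1.21% of 14048 genes in CHAR over ANG, 5.66% in KC over ANG and 16.8% in CHAR over KC. None of the 9 breed results reached an unadjusted p under 0.05 in the edgeR test, and DESeq2 called none of them either. Over the 6 breed and RFI groups, the mean levels of CA4 ran from CHAR H-RFI down to CHAR L-RFI, those of MFSD2A from ANG L-RFI to KC L-RFI and those of NTS from CHAR H-RFI to ANG L-RFI. The steers of each group overlapped in range with those of the next group in this order for every gene.

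**Figure D3:**
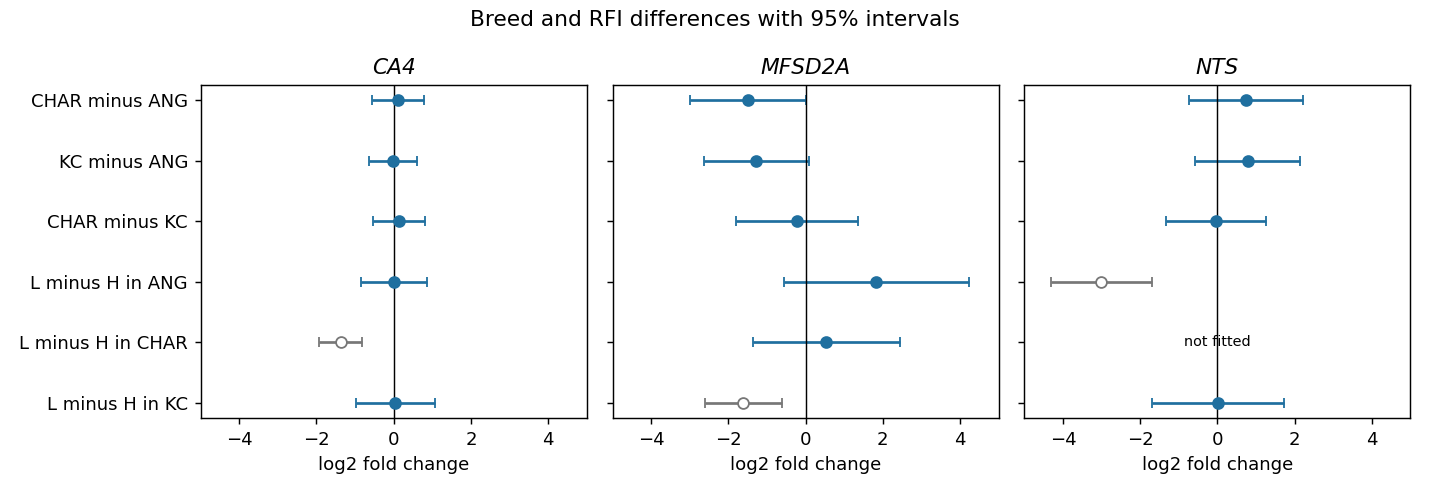
Log2 fold change (horizontal axis) with its 95% interval for CA4, MFSD2A and NTS in the breed contrasts and in L-RFI over H-RFI steers within each breed. Filled blue points were tested and open grey points are the contrasts that chose the gene. Every tested interval includes 0, the MFSD2A interval of CHAR over ANG ending at 0.01.

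The steers differed from each other more in these genes than in most. The biological coefficient of variation, the spread between steers of the same breed and RFI group beyond counting error, was 0.404 for CA4, 0.837 for MFSD2A and 0.798 for NTS. The median of the 14048 genes was 0.176, and genes of like abundance had 0.251, 0.373 and 0.377. In all, 8.57%, 0.641% and 0.733% of genes varied more. The choice of the genes and this spread rest on the same libraries.

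The extremes of the genes fell on a few animals. F32 in ANG H-RFI and F48 in CHAR H-RFI had the highest level of their group in CA4, MFSD2A and NTS alike. F23 combined the highest MFSD2A of all 22 steers with the lowest CA4 of ANG and 1 NTS read. Across all 22 steers, after removing the mean of each breed and RFI group, Spearman's rho was -0.24 between CA4 and MFSD2A, 0.37 between CA4 and NTS and 0.27 between MFSD2A and NTS. These are descriptions, in which the genes compared come from the same libraries, and 8.30% of all genes had a rho with CA4 as high as that of NTS.

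Of the 242 genes with a name, those most like CA4 across the 22 steers were PIM1, a serine/threonine kinase (rho 0.83, rank 2 of 14047 genes), ADAMTS4, a protease of the extracellular matrix (0.73, rank 13), and RGS16, a regulator of G protein signalling (0.72, rank 18). SESN1, a stress-induced sestrin, had the most opposite pattern (-0.69). For comparison, 99% of all genes had a rho with CA4 below 0.59. Without removing group means, PIM1 came to 0.61, ADAMTS4 to 0.62 and RGS16 to 0.35. For MFSD2A, PPAN, a ribosome biogenesis factor (0.75, rank 36), and C18H19orf48 (0.74, rank 40) stood high, and LOC531152 stood lowest (-0.73). NTS, with a median under 10 reads, was not ranked. Genes without a name and some named genes are left out of these rankings.

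Of the genes known beside MFSD2A at the blood-brain barrier, only SLC2A1 and OCLN could be matched (2 of 12 listed). SLC2A1 ran from 7.50 to 271 TMM CPM over the 22 steers with a median of 25.4, and OCLN from 4.37 to 17.5 with a median of 10.1. The rho of MFSD2A was 0.42 with SLC2A1 and -0.54 with OCLN, and that with PDPN was 0.55. Without removing group means these were 0.44, -0.59 and 0.059. F32 and F48, the highest steers of their groups in all 3 genes, had the highest SLC2A1 levels of the study, 232 and 271 TMM CPM. The highest MFSD2A level, in F23, came with 68.7 TMM CPM of SLC2A1.

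**Figure D4:**
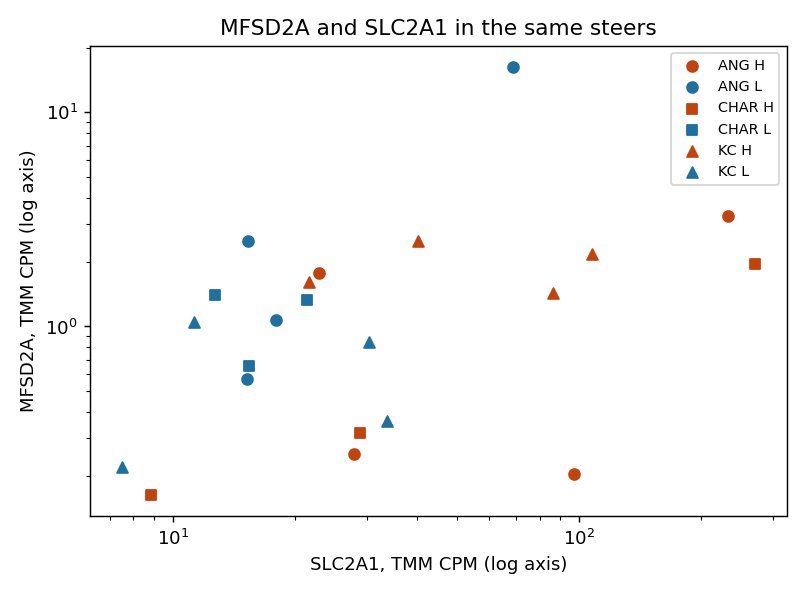
MFSD2A (vertical axis) against SLC2A1 (horizontal axis) in the same 22 steers, both in TMM CPM on log axes, with circles for ANG, squares for CHAR and triangles for KC, red for H-RFI and blue for L-RFI. Each point is a steer. The points scatter widely (rho 0.42 after removing group means), with F23 at the top and steers of 232 and 271 TMM CPM of SLC2A1 at the right.

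Between breeds, 0 of the 3 matched lymph vessel genes and 1 of the 2 barrier genes passed the test, the latter in CHAR over KC, where 16.8% of all genes passed. OCLN was higher in CHAR than in KC (log2 fold change 0.69, SE 0.21, adjusted p = 0.0404 by edgeR), averaging 13.4 ± 3.39 against 8.96 ± 4.13 TMM CPM (SD, n = 6 and 8). Its adjusted p rose to 0.138 without F43, 0.108 without F46 and 0.1003 without the 6 steers of the low ambiguous share, and 3 small RNA genes lie within OCLN in the RefSeq annotation. SLC2A1 differed by 0.18 (SE 0.66) in the same contrast, with adjusted p = 0.886 by edgeR. Of the other cell type genes, TPSB2 was lower in CHAR than in KC (-1.36, SE 0.44, adjusted p = 0.0562 by edgeR), a call kept in 16 of 22 fits that left out a steer and lost without the 6 steers (adjusted p = 0.112). DES, TTN, NEB, PRX and HDC did not pass in any breed contrast. The lists of the other carbonic anhydrases, of bicarbonate and lactate transporters, of lysophospholipid transport, of capillary fatty acid handling and of neurotensin receptors and peptide processing had no gene that could be matched to a name, so no value is given for them.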

How the data were processed

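Subcutaneous fat of 22 steers was profiled by RNA-Seq. Stranded libraries depleted of ribosomal RNA had been read from both ends (100 bp). The authors trimmed with fastq-mcf, keeping bases of quality 20 or more and reads of 75 bp or more, aligned to UMD3.1 by TopHat2 2.0.9 (SAMtools 1.1 is also named) and deposited raw read counts per gene from HTSeq-count 0.6.1. Annotation version and strand setting are not given in the sources used here. The 5 summary lines were left out, and 34.3% to 42.5% of all reads in the table other than those aligned to several places lay on genes.

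Names came from the study's supplementary list of 242 genes, so 12 of 157 listed symbols were matched. Some genes are not reported by name. Members and lists were chosen with earlier results of these data known.

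Genes above 1 CPM in 50% or more of a breed's steers, or in 1 or more breeds when several were fitted, entered edgeR's quasi-likelihood test (R 4.3.3, edgeR 4.0.16, limma 3.58.1) with TMM scaling and Benjamini-Hochberg adjustment, and were called at a false discovery rate below 0.1. Breed contrasts came from the 22 steers with a mean per breed and RFI group, RFI contrasts from the steers of the breed or breeds concerned. Values are log2 fold changes with standard errors. Exact permutation tests, 2-sided, used log2(TMM CPM + 0.5) with scipy 1.17.1. Genes were named as members, as matched genes of the lists that passed a breed contrast, and by highest and lowest Spearman's rho over steers, which needed a median of at least 10 reads. The ranking of named genes alone, values for DES, TTN, NEB, PRX, HDC, PDPN, RELN, THBD and ACKR2, and the fits without 6 steers were added after the data were seen. Alternatives were DESeq2 1.42.0, RLE factors, no filter, edgeR's exact test, other sets of steers, CPM on the total count, a pseudocount of 1, and leaving out each steer. On simulated data with a log2 fold change of 2 in 200 genes, 94.4% (L-RFI over H-RFI in CHAR, 13577 genes) to 99.0% (over ANG and CHAR, 13748 genes) were recovered. Of the calls, 7.32% (ANG) to 11.9% (KC) were false. The 200 genes were drawn at random from all genes fitted. MFSD2A and NTS varied far more (biological coefficient of variation 0.837 and 0.798 against a median of 0.176), so these shares do not measure what the test could find for them. The floor of 3 reads marks detection only and does not cover the counting error of levels above it. For MFSD2A in KC, the 9 reads of F11 (L-RFI) had a 95% counting interval of 0.380 to 1.58 CPM on the total count. The interval for the 15 reads of F1 (H-RFI) was 0.800 to 2.36 CPM. These 2 intervals overlap, although the measured levels of the KC groups did not.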

Additional observations from a re-analysis of the deposited data

Results flagged for a closer look

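MFSD2A was tested for a steer far from the rest in each breed and RFI group of 4, as were CA4 and NTS. This made 12 groups of values. For normally distributed values, chance alone sets off about 1 in 20 such groups. TMM CPM was used here without a log, so that rate may not hold, and a flag can depend on the scale. In ANG L-RFI, MFSD2A in F23 (16.2 TMM CPM, 136 reads) stood apart from the other 3 steers, with a gap of 0.877 of the group's range against a critical value of 0.829. In KC H-RFI, NTS in F9 (0.482 TMM CPM, 6 reads) lay below the other 3 steers by 0.920 of the range.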

How the results depend on the processing

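The 17 tested results of CA4, MFSD2A and NTS stayed above a false discovery rate of 0.1 under all 363 alternatives tried, with a smallest adjusted p of 0.172 (edgeR or DESeq2, Benjamini-Hochberg), and none of the 15 exact tests passed under its alternatives. The sign changed in 39 of the 363, of which 35 left out a steer. The other 4 were CA4 without the 6 steers of the low ambiguous share, chosen after seeing the data: 0.18 in KC over ANG, -0.61 in ANG, -0.30 in KC and -0.45 over ANG and KC. Leaving out a steer gave the following log2 ranges. CA4 ran from -0.029 to 0.31 in CHAR over ANG, -0.040 to 0.25 in CHAR over KC, -0.16 to 0.18 in KC over ANG, -0.38 to 0.29 in ANG, -0.18 to 0.40 in KC and -0.16 to 0.21 over ANG and KC. MFSD2A ran from -1.06 to 0.047 in CHAR over KC, -2.34 to -0.57 in CHAR over ANG, -1.46 to -0.35 in KC over ANG, -0.0089 to 2.74 in ANG, 0.011 to 0.80 in CHAR and 0.26 to 2.03 over ANG and CHAR. NTS ran from -0.53 to 1.22 in CHAR over ANG, -1.31 to 0.47 in CHAR over KC, 0.26 to 1.27 in KC over ANG, -1.01 to 0.40 in KC, -1.30 to 0.48 over CHAR and KC, -1.08 to 0.47 in CHAR and -3.98 to -2.75 in ANG. MFSD2A in CHAR could be fitted in 3 of 6 such cases and NTS in ANG in 4 of 8. The causes were not tested.

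Counts of genes called depend on the settings far more. For breeds, 170 genes in CHAR over ANG became 75 without a filter, 509 by DESeq2, 71 with these breeds alone, 4 without the 6 steers and 0 to 289 without a steer. KC over ANG went from 795 to 399, 1339, 505, 1 and 294 to 1559, and CHAR over KC from 2364 to 1853, 2779, 2133, 1017 and 1435 to 2532. In KC, the single gene called between RFI groups became 781 in the fit of all 22 steers and 0 to 128 without a steer. The levels of CA4 relative to blood vessel markers were not run, since no marker was matched. MFSD2A and NTS rest on medians of 12 and 9.5 reads, and the SD of their counts over the 22 steers was 6.56 and 4.13 times the square root of the mean count, the spread that counting alone gives at equal depth. No paired analysis was possible because every steer is numbered separately and belongs to a single group.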
